A study of Homo sapiens with 2 samples.

Results

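Long intergenic non-coding RNAs (lincRNAs) that were well counted in PLC8024 cells were compared between a MAEL WT and a MAEL KO library. PLC8024, also called PLC/PRF/5 or Alexander cells, is a hepatocellular carcinoma (HCC) cell line. RNA of untreated cells with the wild-type MAEL gene and of cells in which MAEL was knocked out with sgRNA and Cas9 was sequenced as 1 library per condition. The knockout cells were sorted for the mCherry signal of the plasmid and grown from single cells, so that the MAEL KO library stands for a clonal line. Differences between clones or cultures and the effect of the knockout cannot be told apart here, and no difference below has a replicate check.

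The members are the genes listed as lincRNA on an autosome with at least 100 raw counts in 1 library or the other, leaving out H19, GAS5, ZFAS1 and the SNHG genes. This gave 178 members among 7629 lincRNA rows and 58735 listed genes. The members were selected on the counts of the libraries that are compared, so their values are a description. At 100 counts or more in both libraries stood 99 members, while 60 reached that number only in MAEL WT and 19 only in MAEL KO. A member of the last 2 kinds had to differ between the libraries: all 60 were lower and all 19 were higher in MAEL KO. At the limit of 100 counts, AC092747.4 (71 and 100 counts), MIR9-3HG (100 and 59) and AC090825.1 (101 and 55) lay just inside. OSER1-DT (99 and 48), AC245297.3 (99 and 74) and AC026401.3 (99 and 98) lay just outside, where the count of MAEL WT is given first, as it is throughout. Left out by name were 4 rows that reached 100 counts, of which SNHG8 had 1993 and 778 counts.

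lincRNAs are transcribed by RNA polymerase II from their own loci between protein-coding genes, and most are spliced and carry a poly(A) tail without coding for a known protein. Some act as scaffolds in the nucleus: NEAT1 builds paraspeckles, bodies that hold proteins such as NONO and SFPQ, and MALAT1 collects in nuclear speckles next to splicing factors. Others act in the cytoplasm, such as NORAD, which binds the protein PUM2, or serve as precursors of microRNAs, and for most members no function is known. In HCC, NEAT1, MALAT1, UCA1, CASC15 and CYTOR are among those that have been linked to growth of the tumor cells.

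Total counts were 19904136 in MAEL WT and 20833332 in MAEL KO, and mitochondrial genes took 4.42% and 4.95% of them. MAEL itself had 1 and 0 counts, which leaves the label of MAEL KO without a check in these counts. The liver genes APOB (80091 and 135805 counts) and SERPINA1 (78162 and 232891) were high in both libraries, whereas ALB (59 and 8550) and AFP (26 and 1351) were near absent from MAEL WT. Of the markers of other cells, CD3E was at 0 in both libraries, PTPRC, COL1A2, DCN and VWF had at most 3 counts, CDH5 had 4 and 15, COL1A1 had 92 and 11, and LYZ (1251 and 737) and PECAM1 (348 and 392) were counted in both. The part of these differences in the results below was not tested.

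Sequences of promoters and of mature microRNAs were read from RefSeq, for 64 members with a promoter entry. The promoter windows run from 250 bases before to 50 bases after the RefSeq start on GRCh38.p14, and they are shown for a member that was higher in MAEL KO (MIR210HG), a divergent one that was lower (NUP50-DT), a nuclear one that was lower (MALAT1) and one that hardly moved (NORAD). Each is read on the strand of its gene, at chr11:568408-568707 (minus), chr22:45163732-45164031 (minus), chr11:65498795-65499094 (plus) and chr20:36050911-36051210 (minus). Capitals mark the motif CCAAT, which NF-Y binds, on either strand. They also mark the TATA box TATAAA, and the E-box CACGTG.
MIR210HG: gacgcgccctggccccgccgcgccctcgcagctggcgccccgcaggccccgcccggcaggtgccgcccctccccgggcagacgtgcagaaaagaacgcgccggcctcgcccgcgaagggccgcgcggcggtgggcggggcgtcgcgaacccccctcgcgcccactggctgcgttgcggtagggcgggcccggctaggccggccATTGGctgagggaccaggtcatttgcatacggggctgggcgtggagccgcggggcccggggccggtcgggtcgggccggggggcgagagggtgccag
NUP50-DT: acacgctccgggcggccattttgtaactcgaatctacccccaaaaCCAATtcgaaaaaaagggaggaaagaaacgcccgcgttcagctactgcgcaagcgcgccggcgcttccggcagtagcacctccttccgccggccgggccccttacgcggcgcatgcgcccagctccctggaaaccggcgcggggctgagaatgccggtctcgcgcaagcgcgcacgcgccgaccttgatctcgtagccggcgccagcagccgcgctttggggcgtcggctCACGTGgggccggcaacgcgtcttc
MALAT1: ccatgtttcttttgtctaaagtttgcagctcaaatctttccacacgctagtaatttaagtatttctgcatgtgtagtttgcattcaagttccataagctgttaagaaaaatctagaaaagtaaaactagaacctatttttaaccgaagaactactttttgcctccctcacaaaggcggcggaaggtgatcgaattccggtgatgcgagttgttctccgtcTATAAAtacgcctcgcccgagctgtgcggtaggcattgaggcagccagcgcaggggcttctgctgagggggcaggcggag
NORAD: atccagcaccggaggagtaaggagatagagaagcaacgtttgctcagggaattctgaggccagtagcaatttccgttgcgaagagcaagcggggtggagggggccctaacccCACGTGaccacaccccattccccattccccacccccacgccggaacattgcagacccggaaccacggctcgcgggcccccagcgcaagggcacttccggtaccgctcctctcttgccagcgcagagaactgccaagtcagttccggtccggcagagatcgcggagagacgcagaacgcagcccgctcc

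The CCAAT motif is present in the windows of MIR210HG, where it stands on the other strand, and of NUP50-DT. The E-box stands in those of NUP50-DT and NORAD, and the TATA box in that of MALAT1. The MALAT1 window is set on a start 1357 bp away from that of the listed gene. On either strand, CCAAT was found in 33 of the 64 member promoters (51.6%), against 34.6% of the 35116 promoters of the table. TATAAA was found in 10.9% against 11.5%, CACGTG in 10.9% against 7.26% and the AP-1 site TGACTCA in 7.81% against 4.95%. TTGCGCAA, a site of C/EBP proteins, was in 0 of 64 and in 0.151% of all. A match is a description of the letters and shows no binding.

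The gene bodies of 9 members hold 12 microRNA hairpins. For 5 of these hosts, 1 mature microRNA of each is given as read from RefSeq, 5′ to 3′, with the seed (bases 2 to 8) in capitals, because the seed pairs with target RNAs.
miR-210-3p of MIR210HG: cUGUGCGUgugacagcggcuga
miR-4435 of CYTOR and of MIR4435-2HG: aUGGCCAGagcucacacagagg
miR-4458 of MIR4458HG: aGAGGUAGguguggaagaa
miR-22-3p of MIR22HG: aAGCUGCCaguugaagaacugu

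None of these seeds is shared among the 4 sequences, whereas the miR-4435 hairpins of CYTOR and of MIR4435-2HG give the same mature sequence. CYTOR and MIR4435-2HG are near-identical copies on chromosome 2, and how reads were divided between them is uncertain. Levels of mature microRNAs cannot be read from these libraries, which list the hairpin of MIR210 at 1 and 8 counts.

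The members together took 0.375% of all counts in MAEL WT (95% Clopper-Pearson interval 0.372% to 0.378%) and 0.213% in MAEL KO (0.211% to 0.215%). Like the counting intervals of the fold changes below, these reflect the counting error alone. Without molecular identifiers the reads are not independent molecules. Much of that gap came from NEAT1, which held 21.7% of the members' counts in MAEL WT and 3.84% in MAEL KO. Without NEAT1 and NORAD, the most counted members, the shares were 0.256% and 0.169%. Over all rows listed as lincRNA the share was 0.548% and 0.321%, and rows with at least 10 counts numbered 931 and 709.

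Changes between MAEL WT and MAEL KO are given as log2 fold changes, positive where MAEL KO was higher, after edgeR's TMM normalization and with 1 added to each normalized count. Of the 178 members, 61 were higher and 117 lower in MAEL KO. The median of their log2 fold changes was -0.38 (95% interval from the binomial distribution -0.54 to -0.19), and the quartiles were -1.00 and 0.27. That interval treats the members as independent draws. Genes of 1 pair of libraries, chosen on the same counts, are not, so it is no test of the shift. The median over all 11563 autosomal genes with at least 100 counts in 1 library was 0.07, and that over 10723 protein-coding genes was 0.09. The 95% counting interval lay above 0 for 42 members and below 0 for 97, and it included 0 for 39. Of the 11563 autosomal genes, 6291 were higher and 5272 lower. For those genes the interval lay above 0 for 5241 and below 0 for 4136, and it included 0 for 2186. Among the 99 members with at least 100 counts in both libraries, 42 were higher and 57 lower, with a median of -0.13.

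Past a log2 fold change of 2, the threshold of the study, the MAEL KO library was higher for 8 members (4.49%) and lower for 12 (6.74%). The background in autosomal genes with at least 100 counts was 1.55% higher and 2.32% lower. Over all 17887 genes with at least 10 counts in 1 library it was 2.16% higher and 5.64% lower. Past a log2 fold change of 1, 17 members were higher (9.55%), near the background of 9.16%, and 46 were lower (25.8%), against a background of 9.07%. Nothing more is read from these shares, as the same counts chose the members.

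Some other groups of genes were shifted to lower values as well, but processed pseudogenes were not. Antisense RNAs with at least 100 counts (182 genes) had a median of -0.34, and 23.6% of them were lower past 1. For 62 processed transcripts, another non-coding class, the median was -0.30, whereas 130 processed pseudogenes had a median of 0.76. Protein-coding genes with a mean count between 50 and 300 (2134 genes) had a median of -0.25, and 7.22% were lower past 2 and 21.4% lower past 1. The 146 members in that range had a median of -0.35, and 6.16% of them were lower past 2 and 25.3% lower past 1. Among the members the median hardly differed with the mean count. It was -0.38 under 200 counts (121 members), -0.39 from 200 to 500 (40) and -0.37 at 500 and over (17).

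**Figure D1:**
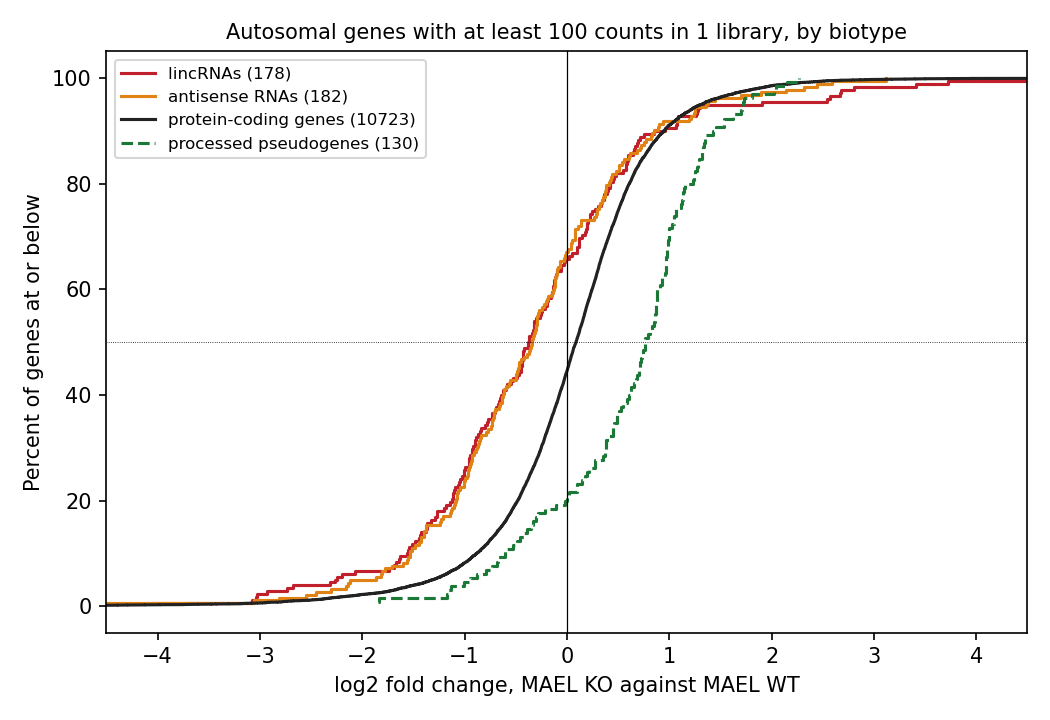
Cumulative percent of autosomal genes (y axis) at or below each log2 fold change between MAEL WT and MAEL KO (x axis), for genes with at least 100 counts in 1 library, by biotype. The lines of lincRNAs and antisense RNAs lie close to each other and left of that of protein-coding genes (medians -0.38, -0.34 and 0.09), and processed pseudogenes lie to the right (median 0.76).

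NEAT1, the scaffold of paraspeckles, had 16194 counts in MAEL WT and 1699 in MAEL KO, a level of 32.5 and 3.94 FPKM. FPKM is the deposited unit, scaled by gene length and by a factor for each library. Levels of different genes can be compared in it, with caution for short genes. NEAT1 was 8.23-fold lower in MAEL KO, with a log2 fold change of -3.04 (95% counting interval -3.12 to -2.97). The gene lies at chr11:65422774-65445540 on the plus strand of GRCh38, and its end is 52148 bp before the start of MALAT1. MALAT1 (chr11:65497688-65506516) had 5407 and 1502 counts, or 28.0 and 8.97 FPKM, a log2 fold change of -1.64 (-1.72 to -1.55). Both nuclear lincRNAs were thus lower in MAEL KO, NEAT1 past 2 and MALAT1 past 1.

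NORAD (chr20:36045622-36050960) behaved otherwise, with 7513 and 7391 counts and the highest FPKM of all members (64.3 and 73.0). Its log2 fold change was 0.19 (0.14 to 0.23), and -0.09 with total counts in the place of the TMM factors. Of the other RNAs on the list of nuclear architecture that are not members for their biotype, TUG1 had 3243 and 2934 counts (0.07), OIP5-AS1 3048 and 1989 (-0.41) and CDKN2B-AS1 412 and 79 (-2.16).

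The genes of proteins that NEAT1 and MALAT1 gather did not follow them. All 9 genes reported from the paraspeckle and speckle list had a log2 fold change above 0 (8 of 9 with total counts as the scaling, where SRRM2 went from 0.16 to -0.12), with a median of 0.79, and 2 of them were higher past 1 and 0 past 2. Among the 11563 autosomal genes with at least 100 counts, 6291 were above 0 and 9.16% were higher past 1. That background is not matched by level to the listed genes. Across 10723 protein-coding genes the log2 fold change had a Pearson correlation of 0.25 with log2 FPKM. SFPQ had 5300 and 9567 counts (1.06), RBM14 623 and 1280 (1.25) and NONO 11047 and 18405 (0.95). PSPC1, another core paraspeckle protein, had 564 and 793 counts (0.70).

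**Figure D2:**
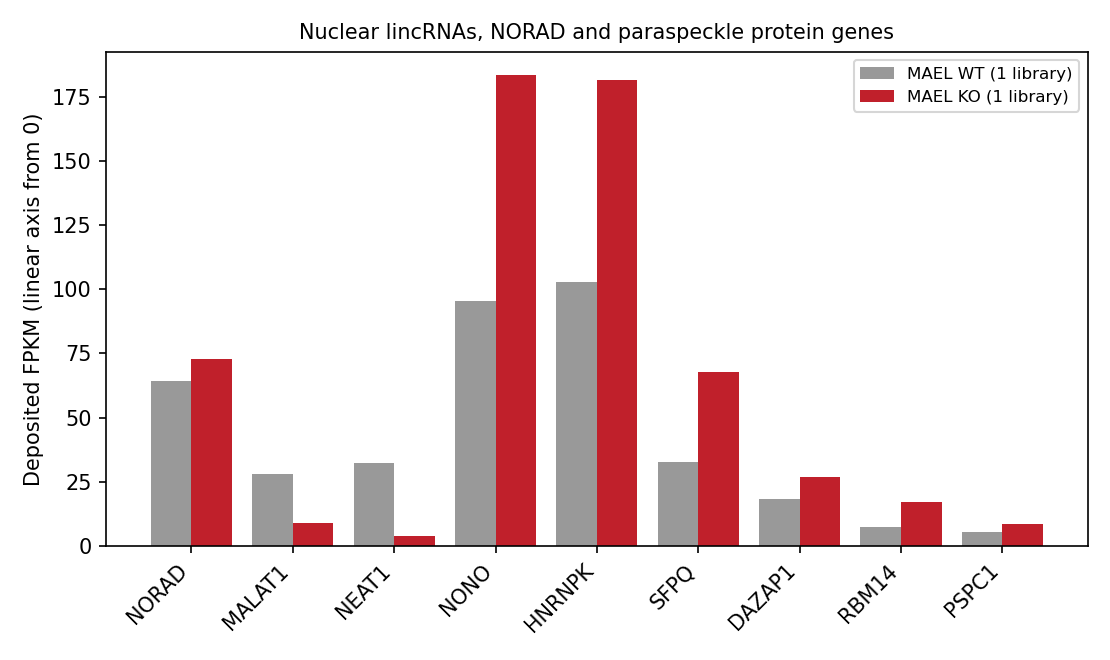
Deposited FPKM (y axis, linear from 0) of NORAD, MALAT1, NEAT1 and 6 genes of paraspeckle proteins in the MAEL WT (grey) and MAEL KO (red) library, 1 library each without error bars. NEAT1 and MALAT1 are lower in MAEL KO (3.94 and 8.97 FPKM) while the protein genes are higher.

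Over 32 genes of proteins that bind or process lincRNAs, 4 were higher past 1, 0 were lower past 1 and 0 passed 2 in either direction, with a median of 0.63. Over autosomal genes with at least 100 counts, 9.16% were higher and 9.07% lower past 1, so that the count of 4 lies near the background. EXOSC10, a catalytic subunit of the nuclear exosome that degrades non-coding transcripts, had 1231 and 2182 counts (1.04). The exosome adaptors ZFC3H1 (1630 and 898 counts, -0.65) and ZCCHC7 (1200 and 715, -0.54) were lower. PUM2, a partner of NORAD, had 2185 and 2612 counts (0.47), and the subunits of polycomb repressive complex 2 had a median of 0.78 (4 genes). The median over all autosomal genes with at least 100 counts was 0.07.

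Mature MALAT1 and the long form of NEAT1 end without a poly(A) tail, so RNAs that are made without one were looked at beside them, a choice made after the values were seen. The summed counts of 70 replication-dependent histone genes were 1691 and 762, a log2 fold change of -0.94 (-1.06 to -0.82). Summed snoRNA genes had 762 and 1035 counts (0.65), snRNA genes 687 and 665 (0.16) and RN7SL2, the RNA of the signal recognition particle, 32422 and 26140 (-0.10). These classes did not share a direction, and the part of poly(A) selection or histone output in the values of NEAT1 and MALAT1 was not tested.

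The motif TGTANATA, which PUM2 binds, was counted in 1 GENCODE 29 transcript of each member. NORAD held 15 copies and HCG11 held 16, against 6 in NEAT1, and 145 of the 178 members held none. HCG11, like NORAD, is a single-exon RNA, and it had 1029 and 824 counts, a log2 fold change of -0.11 (-0.24 to 0.02). Both RNAs held 2.81 copies per kb, and the ends of their RefSeq promoter windows share a nearly identical stretch. How far their sequences are alike, and how reads were divided between them, was not tested. HCG11 was named for its number of copies, after the values were seen.

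**Figure D3:**
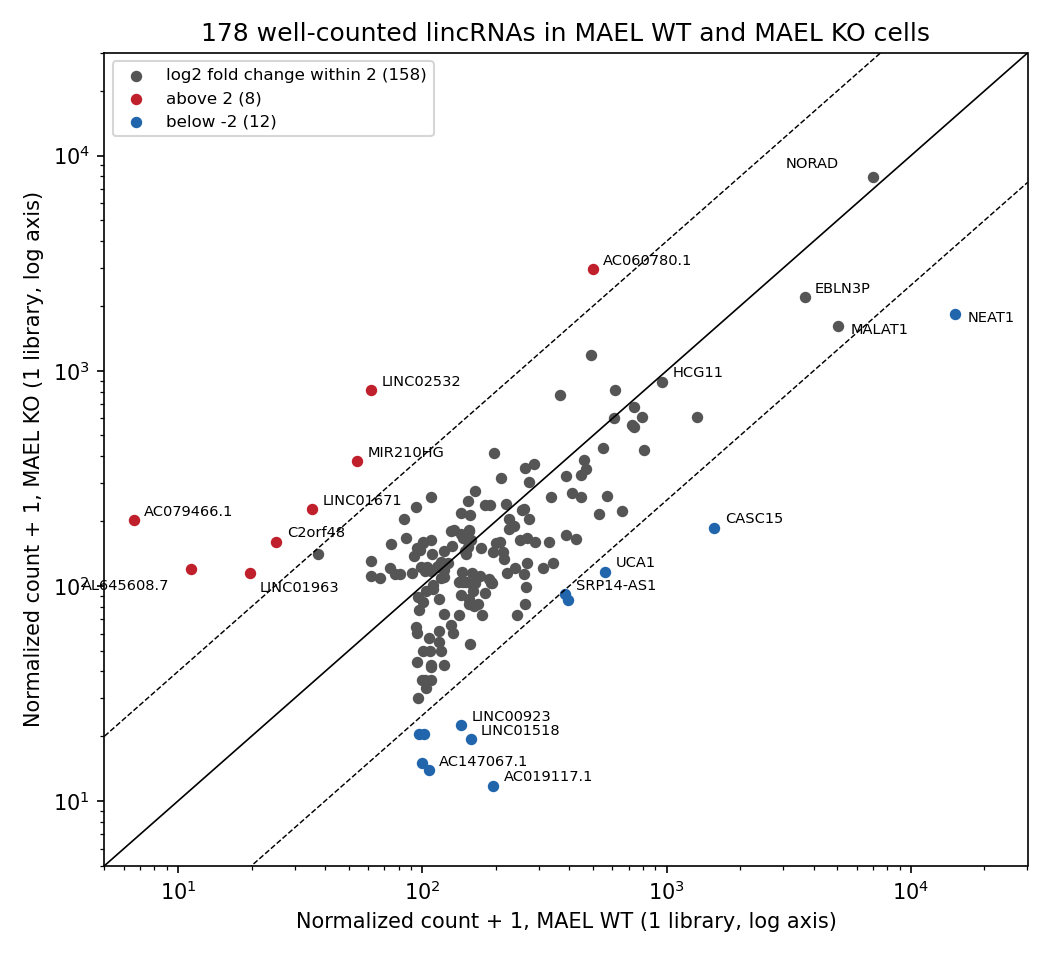
Normalized counts plus 1 of the 178 lincRNAs in the MAEL WT (x axis) and MAEL KO (y axis) library, both on log axes, with the line of equal values and dashed lines at a log2 fold change of 2 and -2. The 8 members above 2 are red and the 12 below -2 are blue, and NORAD lies next to the line of equal values while NEAT1 lies below the dashed line.

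The 8 members higher past 2 lay on 7 chromosomes, with 5.82-fold to 30.6-fold higher normalized counts in MAEL KO. AC079466.1 (chr19:28606688-28615229) had 6 and 186 counts, a log2 fold change of 4.93 (4.02 to 6.63), which starts from the lowest count of any member. LINC02532 (chr6:106717452-106787541) had 65 and 752 counts, or 0.44 and 5.88 FPKM, with a log2 fold change of 3.72 (3.38 to 4.13). AL645608.7 (chr1:995966-998051), a single-exon RNA near HES4, had 11 and 110 counts (3.41, 2.64 to 4.58). For none of these was the nearest protein-coding gene past 1: UQCRFS1, QRSL1 and HES4 had log2 fold changes of 0.46, 0.10 and -0.05.

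MIR210HG, the host of the hypoxia-induced miR-210, had 57 and 350 counts at chr11:565660-568457, a log2 fold change of 2.81 (2.42 to 3.26). Its neighbour RASSF7 on the opposite strand had 660 and 1435 counts (1.33). LINC01671 on chromosome 21 had 37 and 209 counts (2.67, 2.20 to 3.25), and LINC01963 on chromosome 2 had 20 and 105 (2.54, 1.90 to 3.37). LINC01963 lies 10742 bp from XRCC5, which encodes the Ku80 subunit of DNA repair and had 5470 and 14156 counts (1.58).

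A pair of the higher members overlaps other counted genes, so that their reads are uncertain. AC060780.1 (chr17:43148368-43171037) had 533 and 2743 counts, the most of the 8, with a log2 fold change of 2.57 (2.44 to 2.71), and its body overlaps 5 other listed genes. Counted genes among them include NBR1, BRCA1, NBR2 and AC060780.2. NBR1, on the opposite strand, had 2701 and 2492 counts. Whether counting used strand is not given in the sources used here, and strand would not separate genes that share one. C2orf48 had 26 and 148 counts (2.67, 2.11 to 3.38) and overlaps AC007240.1, which had 10 and 91 counts.

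AC019117.1 (chr7:17405479-17558909) was the lowest of the 12 members lower past 2, with 208 and 10 counts and a log2 fold change of -4.05 (-5.25 to -3.26). CASC15, a long locus on chromosome 6 (21664772 to 22368328) that has been linked to neuroblastoma risk and to HCC, had 1682 and 172 counts, or 5.79 and 0.68 FPKM (-3.07, -3.31 to -2.85). UCA1, first described in bladder cancer and active in several carcinomas, had 601 and 107 counts (-2.27, -2.59 to -1.98). With NEAT1, CASC15 and UCA1 were the members lower past 2 that had the most counts in MAEL WT.

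LINC01518 had 168 and 17 counts (-3.03), AC147067.1 had 113 and 12 (-2.93) and LINC00886 had 106 and 13 (-2.73). LINC00923 on chromosome 15 had 154 and 20 counts (-2.68, -3.49 to -2.06), and its neighbour ARRDC4 at 86148 bp had 436 and 122 (-1.62). AC108062.1 (108 and 18 counts, -2.32) and LINC02434 (103 and 18, -2.25) are on chromosome 4. These 6 had at most 20 counts in MAEL KO, and their counting intervals are accordingly wide.

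NUP50-DT and SRP14-AS1 are divergent transcripts that start next to a protein-coding gene on the other strand. NUP50-DT (chr22:45133020-45163781) had 422 and 79 counts (-2.19, -2.57 to -1.86), whereas NUP50, a nucleoporin gene whose body is 60 bp away, had 1373 and 2250 (0.92). SRP14-AS1 (chr15:40039311-40067290) had 411 and 84 counts (-2.07, -2.44 to -1.74), and SRP14 had 4990 and 6044 (0.49). In these pairs the lincRNA was lower and the partner higher in MAEL KO. AC108062.1, the remaining divergent member lower past 2, differed from them in that its partner PGRMC2, at 3922 bp, was lower too (2395 and 1734 counts, -0.26).

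**Figure D4:**
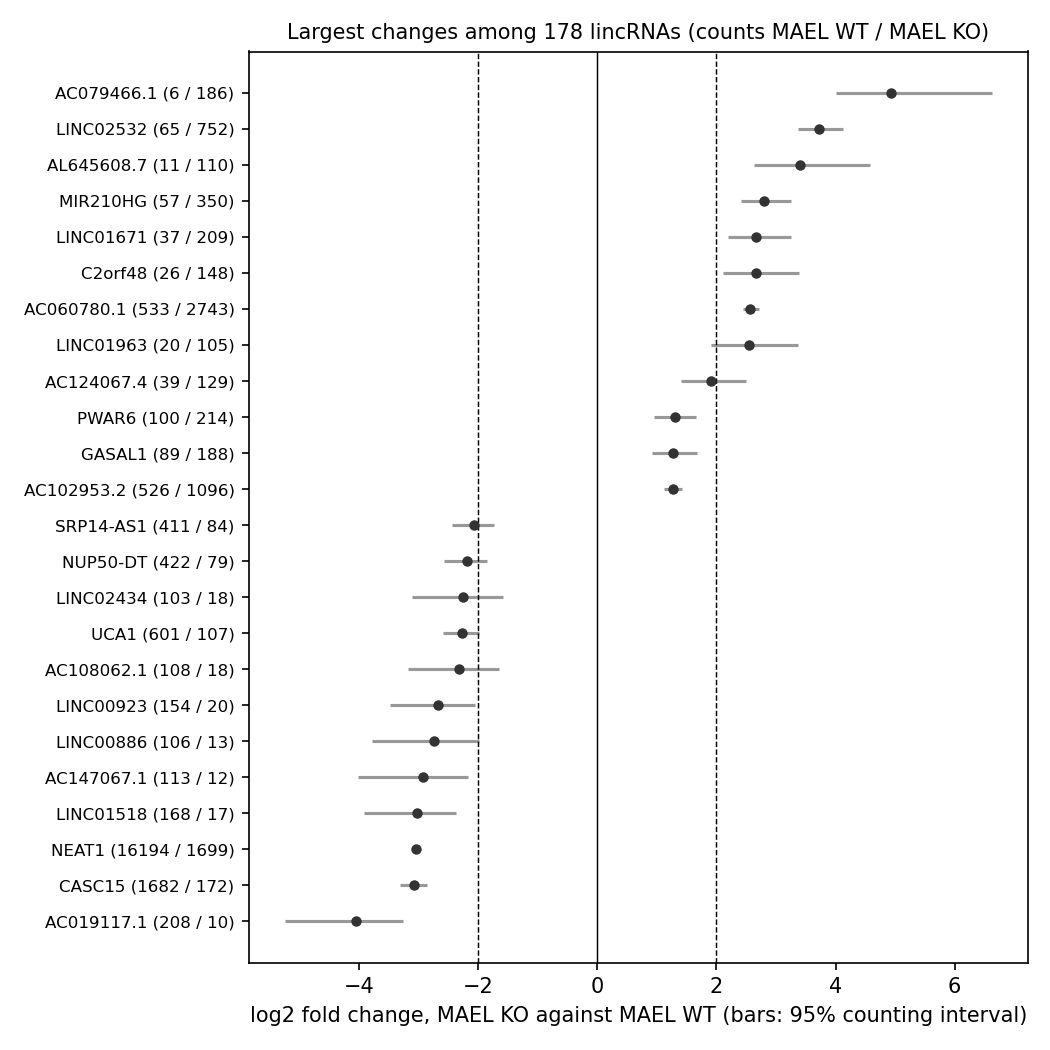
Log2 fold change between MAEL WT and MAEL KO (x axis) for 12 members at the upper and 12 at the lower end of the range, with raw counts in both libraries after each name. Points are the values, bars the 95% counting intervals, and dashed lines the threshold of 2, which the interval clears for 7 of the 8 higher members and for 6 of the 12 lower ones.

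At the threshold of 2, LINC01963 (2.54) and AC060780.1 (2.57) were the nearest higher members inside, and AC124067.4 (39 and 129 counts, 1.91) and PWAR6 (100 and 214, 1.30) the nearest outside. On the lower side SRP14-AS1 and NUP50-DT lay inside, with LINC00862 (261 and 67 counts, -1.74) and PSMG3-AS1 (282 and 75, -1.69) outside. GASAL1 (89 and 188 counts, 1.28) and AC102953.2 (526 and 1096, 1.27) followed among the higher members. PWAR6 lies in the Prader-Willi region and overlaps SNHG14, so its reads are uncertain too.

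By FPKM, NORAD led the members and was followed by AL355338.1 (38.7 and 29.8 FPKM) and AC016710.1 (35.2 and 27.2), whose log2 fold changes were both -0.37. LINC00508 (33.0 and 16.3 FPKM, -1.00) and EBLN3P (27.7 and 16.6, -0.73), a gene derived from a bornavirus insertion, were next. LINC00508 is listed at 194 bases with 140 and 60 counts, and AC016710.1 at 466 bases with 359 and 240. Their places by FPKM thus rest on short lengths and not on many counts. LINC01419 stood at 19.6 and 19.3 FPKM (-0.02), LINC01608 at 18.8 and 10.4 (-0.85) and LINC02381 at 16.8 and 12.9 (-0.38). With MALAT1 and NEAT1 these made the 10 members with the highest mean FPKM, of which only NORAD had a positive log2 fold change (with TMM factors), and NEAT1 had the lowest FPKM of them in MAEL KO.

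Among the lincRNAs listed for liver and liver cancer, 6 were members, of which 2 (CASC15 and UCA1) were lower past 2 and 0 were higher past 2, against 2.32% of autosomal genes with at least 100 counts and 6.74% of all members that were lower past 2. LINC00662 had 701 and 206 counts (-1.55, -1.79 to -1.33), and LINC01268 had 154 and 97 (-0.45). CYTOR (101 and 138 counts, 0.66) and PVT1, the neighbour of MYC (141 and 141, 0.21), were on the other side of 0, PVT1 not so with total counts (-0.07). The median of the 6 was -1.00, against 0.07 over autosomal genes with at least 100 counts. Of the other listed names, FAM99A, LINC01093 and LINC00844, which are transcribed in normal liver, were at 0 counts in both libraries. Others on the list were counted at low levels, among them MIR122HG (10 and 10 counts), LINC02027 (14 and 31), LINC01485 (24 and 5) and LINC01554 (4 and 7). LINC00511 (303 and 86 counts, -1.60) and DANCR (679 and 1601, 1.45) were well counted but carry another biotype.

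Of the 5 members that host a microRNA by name, MIR210HG was higher past 2 and 0 were lower past 2. Over autosomal genes with at least 100 counts, 1.55% were higher and 2.32% lower past 2, and over all members 4.49% and 6.74%. MIR4435-2HG had 224 and 293 counts (0.60), MIR4458HG 144 and 167 (0.42), MIR22HG 489 and 357 (-0.24) and MIR9-3HG 100 and 59 (-0.54). MIR22HG gives rise to miR-22 and is induced by several stresses. In the stress and hypoxia list NEAT1 and UCA1 were lower past 2, MIR22HG was at -0.24 and MIR210HG alone was higher, so that the 4 members did not share a direction.

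TP53TG1, a p53-induced RNA, had 161 and 130 counts (-0.10, -0.44 to 0.24), and with NEAT1 it was the only member on the p53 list. PVT1 was the only member on the list of RNAs linked to MYC. LINC00467, whose locus has a reported small protein, had 118 and 93 counts (-0.13, -0.54 to 0.27). For TP53TG1, PVT1 and LINC00467 the counting interval included 0.

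Single-exon members (36) had a median log2 fold change of 0.19 (-0.08 with total counts), and members with 2 or more exons (142) had one of -0.44. All 12 members lower past 2 had 2 or more exons, as had 6 of the 8 higher past 2 and 142 of all 178 members. Members that overlapped another listed gene (89) and those that did not (89) had medians of -0.38 and -0.37. The 33 members more than 100 kb from a protein-coding gene had a median of -0.85, against -0.33 for the other 145. Across the 178 members the log2 fold change had a Pearson correlation of -0.01 with log2 FPKM, 0.15 with GC content, 0.02 with log2 gene length and -0.05 with the log2 distance to the nearest protein-coding gene (Spearman -0.12). These points share both libraries, and the correlations are given without a test.

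Members were found on all 22 autosomes. All 7 members on chromosome 4 were lower in MAEL KO (median -1.56) and so were all 5 on chromosome 16 (median -1.29), while all genes with at least 100 counts on these chromosomes had medians of 0.02 and 0.06. Over all 178 members 117 were lower (65.7%), with a median of -0.38. Whether the members on chromosomes 4 and 16 differ from the others was not tested. CRNDE, a lincRNA that is raised in colorectal and liver tumors, had 566 and 199 counts on chromosome 16 (-1.29, -1.54 to -1.06). AC026462.3 on the same chromosome had 285 and 91 counts (-1.43), with its nearest protein-coding gene TOX3 at 949 and 260 (-1.65). On chromosomes 17 and 5, with 10 and 9 members, the medians were 0.17 and 0.02, both below 0 with total counts (-0.11 and -0.26). CRNDE, AC026462.3 and the chromosomes were singled out after their values were seen.

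The nearest protein-coding gene had at least 100 counts in 1 library for 126 members, and in 68 of these pairs both genes moved in the same direction (54.0%, 95% Clopper-Pearson interval 44.9% to 62.9%). This interval treats the pairs as independent, although all of them share the libraries. The member was lower in 79 of the pairs and the neighbour in 51, so unrelated pairs would not agree in an even share. The correlation of the log2 fold changes across the 126 pairs was 0.16 (Pearson) and 0.17 (Spearman), given as a description since all pairs share the libraries. Among 31 divergent pairs, whose starts lie within 5 kb on opposite strands, 13 moved in the same direction (41.9%). In these the member was lower in 20 and the neighbour in 12. Among 23 overlapping pairs the number was 14 (60.9%), and there reads of both genes cannot be told apart without strand. None of the 126 pairs had both genes past 2. The member was higher past 2 in 7 pairs and lower in 7, and the neighbour was higher in 0 and lower in 2. In both of the latter pairs the neighbour is CEBPB (-2.23). With so few neighbours past 2, nothing is read from the absence of shared pairs. C2orf48 and AC007240.1 (log2 fold changes of 2.67 and 3.26) are not among the 126 pairs, since AC007240.1 stayed under 100 counts. Beyond NUP50-DT and SRP14-AS1, SUCLG2-AS1 was a divergent transcript with opposite values, at 110 and 30 counts (-1.63) against 1751 and 2147 for SUCLG2 (0.50), a pair that was picked after its values were seen.

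**Figure D5:**
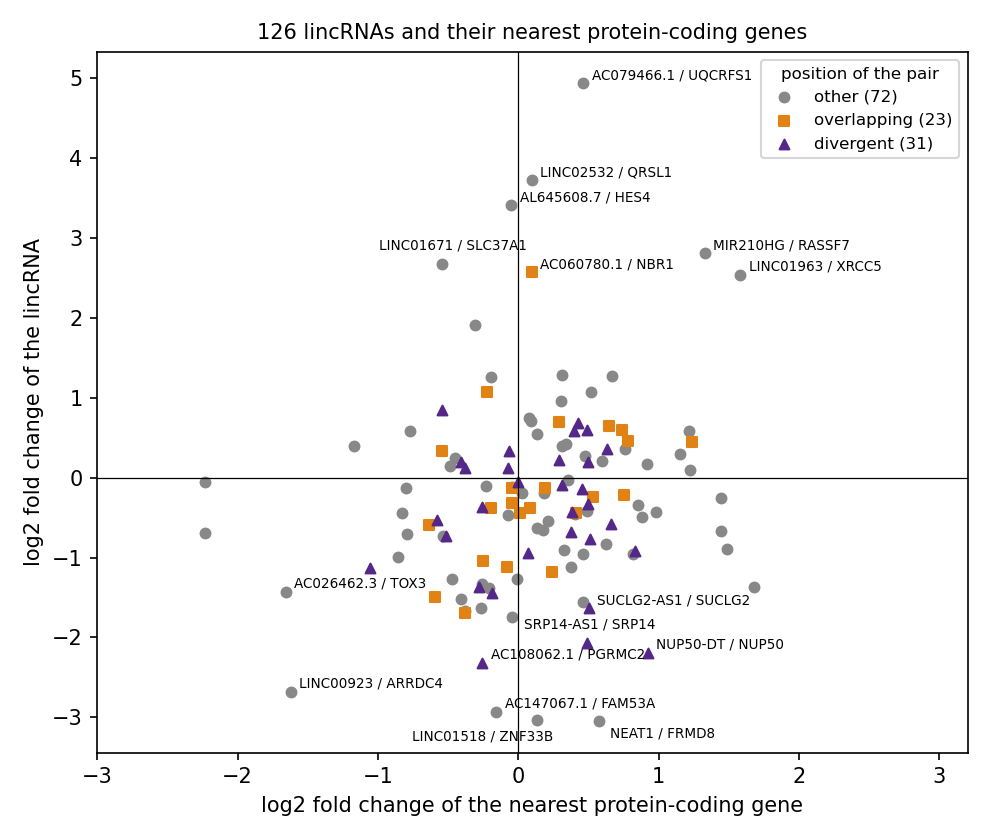
Log2 fold change of each lincRNA (y axis) against that of its nearest protein-coding gene (x axis), for 126 pairs with at least 100 counts of the neighbour in 1 library, with symbols for overlapping, divergent and other positions. The points spread over all 4 quadrants, and NUP50-DT and SRP14-AS1 lie at the lower right, lower in MAEL KO beside a neighbour that was higher.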

How the data were processed

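RNA of PLC8024 cells was sequenced on a HiSeq platform by the authors, as 1 library of MAEL WT and 1 of MAEL KO. The submitters' processing notes name HISAT2 2.0.5, featureCounts 1.5.0-p3 and build hg19. All 58735 listed genes, however, carry the coordinates of GENCODE 29 on GRCh38, which are given here. The authors deposited whole-number counts per gene without normalization, and FPKM values scaled by gene length and by a factor for each library. That factor is not the total count. The median log2 fold change of the members was -0.38 from FPKM ratios and from DESeq2 size factors, against -0.65 from total counts. Counts were normalized here by TMM in edgeR 4.0.16 (R 4.3.3), with factors of 1.10 for MAEL WT and 0.909 for MAEL KO. The counting interval of a fold change comes from the exact Clopper-Pearson limits of the part of its counts found in MAEL KO, computed with SciPy 1.17.1 in Python 3.11.15. No p-value is given, since a single library of each kind holds no replicate error. At these depths 3 counts are 1.51e-05% of the MAEL WT library. No member was at or below that floor.

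The members and lists were chosen with earlier results of these data known. Named members are the 12 at each end of the range of log2 fold changes, the 10 with the highest mean FPKM, those on a list, and those nearest to the limits of 100 counts and of 2. CRNDE, AC026462.3, HCG11 and SUCLG2-AS1 were named outside this rule, after their values were seen. Some listed genes are not reported. Only the log2 fold changes after TMM and their counting intervals were tested on simulated counts. Alternatives were other scalings (DESeq2 1.42.0 size factors, total counts, FPKM ratios), other added counts, other count limits, members without overlaps, a threshold of 1 and an edgeR exact test.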

Additional observations from a re-analysis of the deposited data

How the results depend on the processing

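Scaled by total counts, the members had a median log2 fold change of -0.65 instead of -0.38, while that of all genes tested moved from -0.04 to -0.31 and that of autosomal genes with at least 100 counts from 0.07 to -0.20. The numbers past 2 stayed at 8 higher and 12 or 13 lower under each scaling and added count. The FPKM ratios lie close to the DESeq2 scaling, so they are no separate check. With at least 10 counts 34 of 983 lincRNAs were higher and 126 lower past 2, and with at least 300 counts 3 of 42 were higher and 5 lower. Without members that overlap another gene, 3 and 6 of 89 passed, and with a threshold of 1, 17 and 46 of 178. The exact test of edgeR, run at a coefficient of variation set to 0.4, which compares the libraries and not the conditions, left 1 higher (AC079466.1) and 0 lower members at an adjusted p of 0.01. These counts differ by construction, since fewer or more genes enter or the limit differs. Without the 2 most counted members the share of all counts was 0.256% in MAEL WT and 0.169% in MAEL KO. Of 235 values of 47 named members under other scalings or added counts, 14 left the counting interval and 2 (NORAD and PVT1) changed sign, all of them with total counts. Over all 178 members 17 changed sign with total counts.

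Leaving out a replicate was not possible with 1 library per condition. No paired analysis was possible because each condition has a single library. Levels near 10 counts, as in AC079466.1 and AC019117.1, leave wide counting intervals.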

Other observations

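Protein-coding olfactory receptor genes, which liver cells do not use, gave a level of thin coverage, a choice made after the data were seen. The 386 genes had 459 counts in MAEL WT and 443 in MAEL KO in all, a log2 fold change of 0.16 (95% counting interval -0.03 to 0.35), and 43 and 35 of them had a count. OR2A7 alone held 136 and 123 of these counts.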
